A study of Mus musculus with 18 samples.

Results

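The genes described here are 33 mouse genes of homologous recombination, the Fanconi anemia pathway and the DNA damage checkpoint. They were chosen by symbol from the 55450 genes of the deposited count table, and each of the 33 symbols had exactly 1 row. All 33 were among the 14761 genes that passed the filter on low counts, with at least 90 summed counts in each library. The levels were measured by RNA-Seq in ED1SQ4, a lung cancer line of the mouse derived from a tumor of a transgenic mouse that overexpresses cyclin E. Cells received vehicle or 0.5 µM CYC065, an inhibitor of CDK2 and CDK9, for 72 hours. Each treatment was sequenced as unsorted cells, as a sorted 2N (diploid) population and as a sorted 4N (polyploid) population, which gives 6 conditions. The sort used a DNA stain applied to live cells, and ordinary cells that have copied their DNA but not yet divided also carry a 4N content. All 6 conditions share the same cell line and transgene.

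The table holds 3 columns for each condition. The sample titles call them replicates, while the library names given with them number them as parts of 1 library. Over genes with whole-number counts the 3 columns were compared by chi-square, and the statistic per degree of freedom lay between 0.991 and 1.02, so at these genes the columns differed by no more than sampling noise. Over genes with fractional counts, which RSEM estimates from ambiguous reads, it lay between 4.35 and 7.60. The columns were counted as 1 library per condition, and 32 of the 33 genes had whole counts. Summed counts per library ran from 54750203 to 62795507. Standard errors and adjusted P values given here therefore cover counting error and compare libraries. The spread between cultures was not measured, and a call means that the libraries differed beyond counting error. The labelled lung origin was checked against marker genes. The 7 epithelial and lung markers summed to between 0.429 and 1.34 CPM (read counts scaled to the TMM-adjusted library size), with the lung transcription factor gene Nkx2-1 at 0 in all 6 libraries and Epcam at most 0.0187 CPM. The 6 fibroblast markers summed to between 3220 and 8860 CPM, most of it Col1a1. Thy1, between 0.207 and 0.936 CPM, and Lum, between 1.23 and 6.47 CPM, were low. With CYC065 all 6 rose in 2N and in unsorted cells and 4 in 4N cells. Between 4N and 2N cells 5 of the 6 were lower in 4N in each treatment. The 6 immune markers summed to between 4.82 and 26.3 CPM, most of it Cd68, with Ptprc at most 0.0151 CPM. The 4 endothelial markers summed to between 0.532 and 1.86 CPM. The part of these markers in the results below was not tested.

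Homologous recombination repairs a broken chromosome by copying the sister DNA. BRCA1 with BARD1 promotes resection of the broken ends, and PALB2 links BRCA1 to BRCA2, which prepares the single-stranded DNA for strand exchange. The Fanconi core complex puts ubiquitin on FANCD2 and FANCI at crosslinked DNA, and the kinases ATM and ATR signal breaks and stalled replication to CHK2 and CHK1. Many of these genes are known to be transcribed mainly in cells that replicate their DNA, and E2F factors are known regulators of several of them.

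CYC065 lowered nearly the whole group. In 2N cells 30 of the 33 genes fell, 1 rose and 2 did not pass the test, against 38.7% of all tested genes that were lower and 41.7% that were higher. Of these, 21 fell beyond a log2 fold change of -1, where 10.8% of all tested genes did. The median log2 fold change was -1.17 over the 33 genes and 0.03 over all genes tested. In 4N cells 27 genes fell and 2 rose (37.9% and 42.6% of all genes), 12 fell beyond -1 (9.44% of all genes), and the median was -0.78 against 0.07. Unsorted cells had 32 genes lower and 0 higher in edgeR (39.3% and 39.0% of all genes), 25 of them beyond -1 (12.2%), with a median of -1.23 against 0.00. All 33 log2 fold changes in unsorted cells were below 0, and DESeq2 also called 0 genes higher there, so 0 were higher beyond 1 (13.1% of all genes).

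For 28 of the 33 genes all 3 vehicle libraries were above all 3 CYC065 libraries, which held for 28.4% of all tested genes, and for 0 members all 3 were below (30.3% of all tested genes). The CYC065 unsorted library was the lowest of the 6 for 28 members (28.4% of all genes). The 4N vehicle library was the highest for 17 and the 2N vehicle library for 11, for which no share of all genes was counted. The highest level exceeded the lowest by between 1.41-fold (Fancg) and 7.61-fold (Eme1), with a median of 3.06-fold. Summed over the 33 genes, the level was 1127 CPM in 2N, 1125 in 4N and 938 in unsorted cells with vehicle, and 446, 641 and 367 CPM with CYC065. Genes that mark S phase fell as well: all 16 S phase markers were lower with CYC065 in each of the 3 populations, with medians of -1.54 in 2N, -1.16 in 4N and -1.80 in unsorted cells. Their summed level went from 2641 to 971 CPM in 2N, from 2372 to 1051 in 4N and from 1835 to 566 CPM in unsorted cells. The G2/M markers fell too, 14 of 15 in 2N (median -1.45), 14 in 4N (-0.75) and 15 in unsorted cells (-1.54). The part of the cell cycle in the changes of the 33 genes was not tested, and fewer cells that express a gene cannot be told apart in bulk RNA from less RNA per cell.

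**Figure D1:**
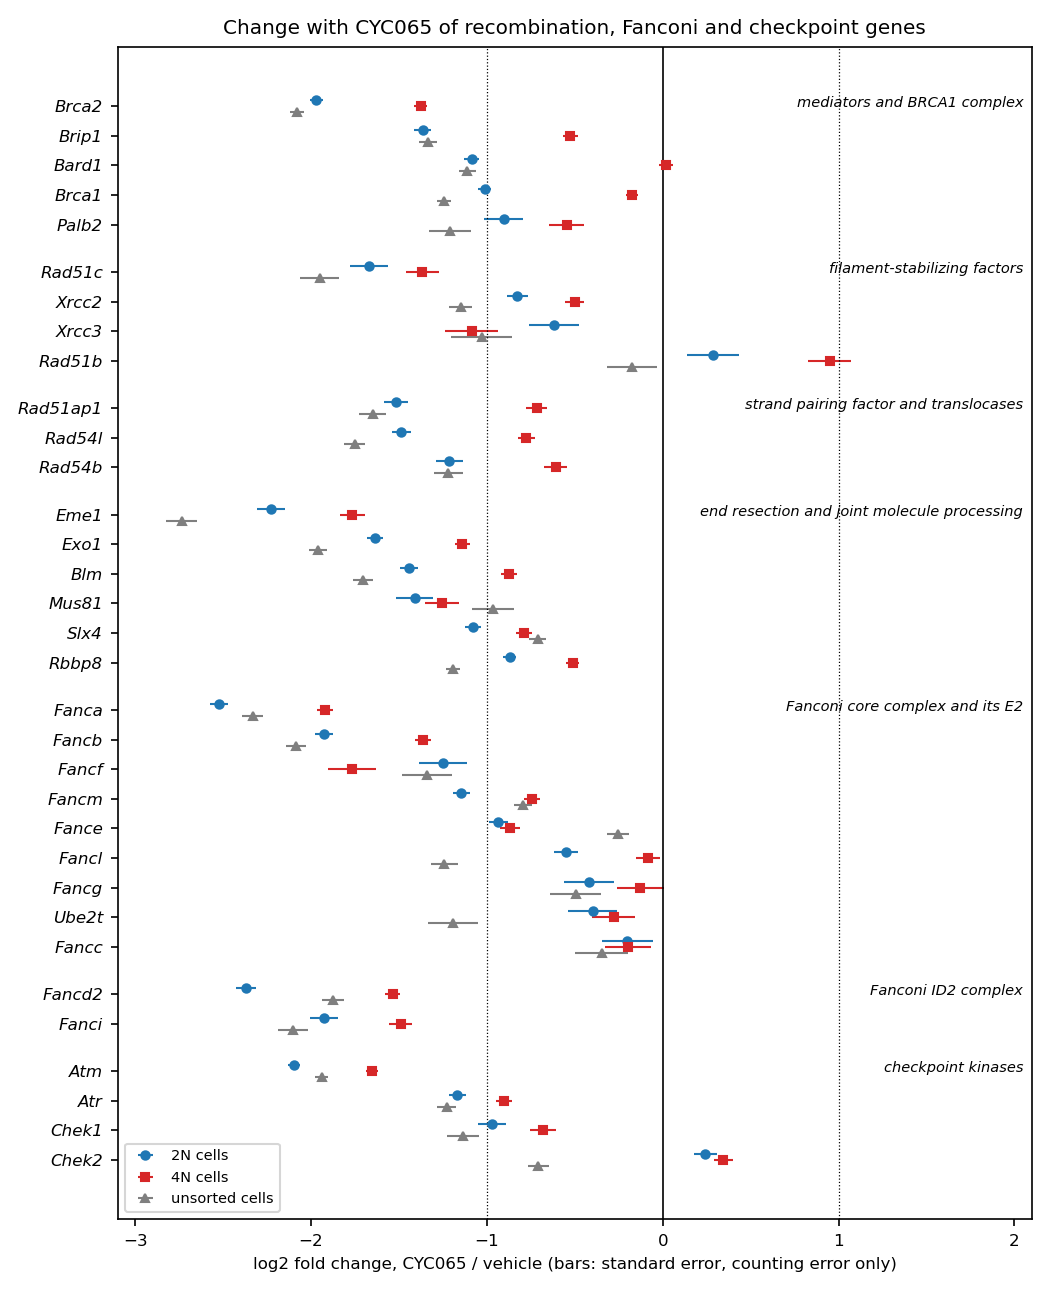
Log2 fold change of each of the 33 genes between CYC065 and vehicle (horizontal axis) in 2N cells (circles), 4N cells (squares) and unsorted cells (triangles), grouped by role, with dotted lines at -1 and 1. Bars are standard errors from counting. Most points lie left of 0, the squares of Brca1 and Bard1 sit close to 0 (-0.17 and 0.02), and Rad51b and Chek2 lie right of 0 in both sorted populations.

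Promoters of the group were read to see what the genes share in sequence. RefSeq start-site windows (250 bases before to 50 after the start, GRCm38.p6) were matched for 28 of the 33 genes. The E2F words TTCCCGC or TTGGCGC, searched on both strands, were found in the windows of 14 of these 28 genes (50.0%) and of 7.79% of all 27025 genes with a window. These 27025 genes were not limited to the 14761 tested here. No share of any word was counted among tested genes alone. CCAAT, the word bound by NF-Y, was in 18 of 28 (64.3%) against 41.1%, and TTTGAA, the CHR word of late cell cycle genes, in 3 of 28 (10.7%) against 20.2%, both also on either strand. The reverse complement of TTGGCGC ends in CCAA, so that word and CCAAT can share bases. Windows of Brca1, Brca2, Atm and Chek2 are printed because each holds an E2F word while the genes moved differently: Brca1, Brca2 and Atm fell in 2N cells, and Chek2 rose. Capitals mark the E2F word, and the strands and positions are those of the genes. The Brca1 window (chr11:101551906-101552205, minus strand) has TTGGCGC on the reverse strand with its first base 21 bases after the start. In the Brca2 window (chr5:150522371-150522670, plus strand) TTCCCGC lies on the reverse strand 168 bases before the start. The Atm window (chr9:53536622-53536921, minus strand) has the same word on the reverse strand 15 bases after the start, and the Chek2 window (chr5:110839733-110840032, plus strand) 152 bases before it.
Brca1: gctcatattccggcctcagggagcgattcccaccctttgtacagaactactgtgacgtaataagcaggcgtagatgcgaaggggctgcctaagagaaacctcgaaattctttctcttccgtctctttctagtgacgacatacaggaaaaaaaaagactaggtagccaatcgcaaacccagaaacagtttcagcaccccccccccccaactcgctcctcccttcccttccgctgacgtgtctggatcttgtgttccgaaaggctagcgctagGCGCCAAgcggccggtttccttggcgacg
Brca2: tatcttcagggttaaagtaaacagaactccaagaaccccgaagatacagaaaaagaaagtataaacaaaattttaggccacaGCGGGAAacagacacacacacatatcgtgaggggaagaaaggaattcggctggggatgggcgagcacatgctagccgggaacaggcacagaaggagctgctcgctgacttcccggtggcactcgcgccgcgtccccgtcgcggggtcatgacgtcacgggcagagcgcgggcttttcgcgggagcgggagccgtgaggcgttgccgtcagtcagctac
Atm: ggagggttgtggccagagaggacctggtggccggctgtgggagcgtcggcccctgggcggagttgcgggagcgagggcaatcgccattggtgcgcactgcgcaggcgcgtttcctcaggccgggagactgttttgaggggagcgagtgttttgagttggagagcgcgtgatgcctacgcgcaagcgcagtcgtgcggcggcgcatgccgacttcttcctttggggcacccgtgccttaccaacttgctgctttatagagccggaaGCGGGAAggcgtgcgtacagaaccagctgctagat
Chek2: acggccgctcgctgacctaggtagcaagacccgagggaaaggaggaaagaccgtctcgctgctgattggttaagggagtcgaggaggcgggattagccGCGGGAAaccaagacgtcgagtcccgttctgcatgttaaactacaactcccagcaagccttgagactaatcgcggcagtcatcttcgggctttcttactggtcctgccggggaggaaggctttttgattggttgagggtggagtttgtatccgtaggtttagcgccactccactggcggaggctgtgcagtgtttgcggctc
The 14 genes with an E2F word and the 14 without had medians in 2N cells of -1.20 (range -2.10 to 0.24) and -1.12 (range -2.52 to 0.29), with no test made. In 4N cells the medians were -0.73 and -0.83. For 4N versus 2N cells they were 0.62 with a word and 0.39 without after CYC065, and 0.05 and 0.05 with vehicle, also untested. The windows of Fancc, Slx4, Fancl, Chek1 and Fanci do not cover the start of the gene in GENCODE M21. Of these, Fancc, Slx4 and Fancl were counted as without a word, so a word at that start would be missed. A word in a window describes its letters and says nothing of binding.

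Among the BRCA1 complex and the mediators, all 5 genes fell in 2N cells, 4 of them beyond -1, and 4 fell in 4N cells. Brca2 (ENSMUSG00000041147.10, chr5:150522630-150570329), which acts on resected single-stranded DNA, had the deepest fall of the 5. Its level was 84.1 CPM in 2N, 88.1 in 4N and 63.3 in unsorted cells with vehicle, and 21.5, 33.9 and 15.0 CPM with CYC065. All vehicle libraries were above all CYC065 libraries, and the log2 fold change was -1.97 (SE 0.04, adjusted P 6.74e-24) in 2N, -1.38 (SE 0.04) in 4N and -2.08 (SE 0.04) in unsorted cells.

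Brca1 (ENSMUSG00000017146.12, chr11:101488764-101551955) encodes the ubiquitin ligase that promotes resection. With vehicle it stood at 84.0 CPM in 2N, 79.8 in 4N and 87.2 in unsorted cells. After CYC065 the levels were 41.6, 70.7 and 36.8 CPM, so the 4N library kept 88.6% of its vehicle level while the 2N library kept 49.6%. The log2 fold changes were -1.01 (SE 0.04, adjusted P 7.26e-18) in 2N and -0.17 (SE 0.04, adjusted P 0.000121) in 4N cells. Bard1 (ENSMUSG00000026196.7, chr1:71027498-71103146), the obligate partner of BRCA1, had 50.7, 49.3 and 39.5 CPM in 2N, 4N and unsorted cells with vehicle and 23.9, 50.0 and 18.3 CPM with CYC065. It fell by 1.09 on the log2 scale in 2N cells (SE 0.04) and did not pass the test in 4N cells, where the change was 0.02 (95% interval -0.06 to 0.10). Both partners had low levels in treated 2N and unsorted cells and levels near vehicle in treated 4N cells.

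Brip1 (ENSMUSG00000034329.16, chr11:86058138-86201193) encodes a helicase that binds BRCA1. Its levels of 38.8, 37.6 and 35.0 CPM in 2N, 4N and unsorted cells with vehicle became 15.0, 26.1 and 13.9 CPM with CYC065. The log2 fold change was -1.37 (SE 0.05) in 2N and -0.53 (SE 0.04) in 4N cells, with adjusted P of 1.15e-18 and 2.48e-11. Palb2, the link between BRCA1 and BRCA2, was lower at 53.4% of vehicle in 2N, 68.6% in 4N and 43.2% in unsorted cells.

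**Figure D2:**
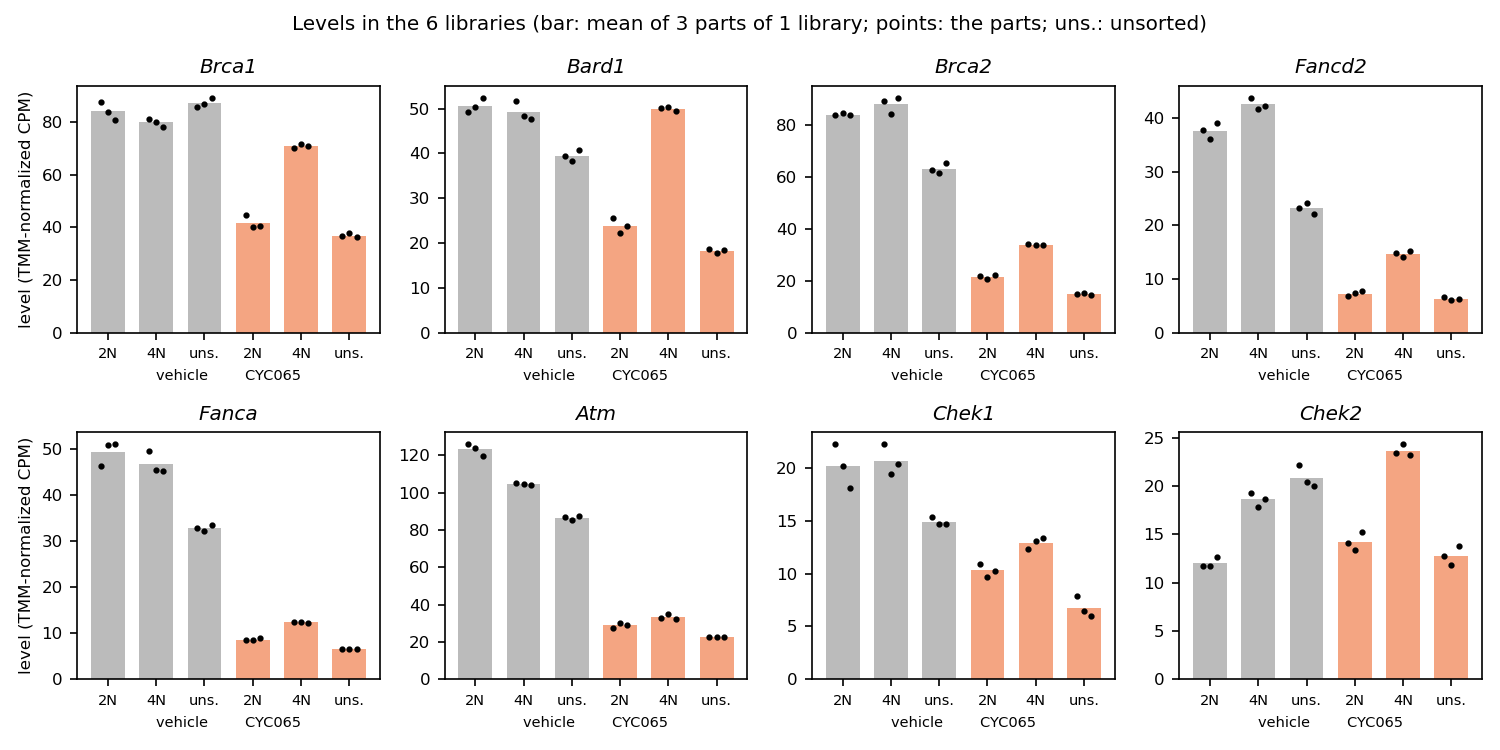
Level of 8 genes in TMM-scaled CPM in the 6 libraries (gray, vehicle; orange, CYC065; uns., unsorted). Bars are the mean of the 3 parts of 1 library and points are the parts, which share that library. Brca1 and Bard1 in treated 4N cells stand near vehicle, while Brca2, Fancd2, Fanca and Atm are low in all 3 treated libraries, and Chek2 is highest in treated 4N cells at 23.7 CPM.

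The 4 genes Rad51b, Rad51c, Xrcc2 and Xrcc3, which encode factors that stabilize the filaments of recombination, did not move alike. Rad51c had log2 fold changes of -1.67 in 2N cells and -1.37 in 4N cells (SE 0.11 and 0.09), and Xrcc2 of -0.83 and -0.50. Xrcc3 (ENSMUSG00000021287.12, chr12:111803192-111813873) had 4.89, 4.26 and 3.45 CPM in 2N, 4N and unsorted cells with vehicle and 3.18, 2.00 and 1.69 CPM with CYC065. Unlike most members its lower sorted level after CYC065 was in 4N cells, at 47.1% of vehicle (log2 -1.09, SE 0.15, adjusted P 5.52e-07), against 65.1% in 2N cells.

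Rad51b (ENSMUSG00000059060.15, chr12:79297282-79814690) was the exception among them. Its levels were 3.65, 4.46 and 4.63 CPM in 2N, 4N and unsorted cells with vehicle and 4.45, 8.62 and 4.10 CPM with CYC065. The treated 4N library stood alone above the other 5, with a log2 fold change of 0.95 (SE 0.12, adjusted P 1.84e-07). In 2N and unsorted cells Rad51b did not pass the test, at 0.29 (95% interval -0.001 to 0.58) and -0.17 (95% interval -0.46 to 0.11). The gene spans 517 kb, the longest span of the 33.

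The strand pairing factor and the translocases moved together. Rad51ap1, which stimulates strand pairing, and the translocases Rad54l and Rad54b fell to 34.9%, 35.7% and 43.2% of vehicle in 2N cells and to 60.8%, 58.4% and 65.6% in 4N cells. In unsorted cells they stood at 31.9%, 29.7% and 43.0%. Rad54b shares 35.8% of its exon bases with Fsbp on the same strand and was the 1 member with fractional counts, so its reads could be split between both genes.

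All 6 genes of end resection and joint molecule processing fell in each population. Eme1 (ENSMUSG00000039055.4, chr11:94644996-94653964), a subunit of the MUS81 nuclease, went from 19.8, 22.1 and 19.3 CPM in 2N, 4N and unsorted cells with vehicle to 4.22, 6.49 and 2.90 CPM with CYC065. No vehicle library overlapped the treated ones, and the log2 fold changes were -2.23 (SE 0.08), -1.76 (SE 0.07) and -2.73 (SE 0.09), the last being the largest fall of any of the 33 genes in any comparison. Its partner Mus81 fell by 1.41, 1.25 and 0.96.

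Exo1 (ENSMUSG00000039748.11, chr1:175880581-175913489), the exonuclease of long-range resection, had 57.7, 49.3 and 43.9 CPM with vehicle in 2N, 4N and unsorted cells and 18.6, 22.4 and 11.3 CPM with CYC065. That is 32.2%, 45.4% and 25.7% of vehicle. The helicase gene Blm fell to 36.8%, 54.6% and 30.7%. The smallest falls of this class were those of Rbbp8, which encodes the resection factor CtIP, at 54.7% and 70.2% of vehicle in 2N and 4N cells, and of the nuclease scaffold Slx4 in unsorted cells, at 61.1%.

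The genes of the Fanconi core complex ranged widely. In 2N cells 8 of its 9 genes fell, and their log2 fold changes ran from -2.52 to -0.20 over the 9. Fanca (ENSMUSG00000032815.16, chr8:123268300-123318576) had the largest fall of the 33 genes in both sorted populations. Its levels were 49.5, 46.8 and 32.9 CPM in 2N, 4N and unsorted cells with vehicle and 8.60, 12.4 and 6.53 CPM with CYC065, a log2 change of -2.52 (SE 0.05, adjusted P 1.52e-23) in 2N and -1.92 (SE 0.05) in 4N cells. Fancb, which is X-linked and sits with FANCL at the catalytic module, had log2 fold changes of -1.93, -1.36 and -2.08 in 2N, 4N and unsorted cells, all called.

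Fancf (ENSMUSG00000092118.1, chr7:51860577-51862267), a single-exon gene for a core complex adaptor, was at 6.64, 7.29 and 6.33 CPM in 2N, 4N and unsorted cells with vehicle and at 2.79, 2.14 and 2.49 CPM with CYC065. Its log2 fold change was -1.25 in 2N cells and -1.77 in 4N cells (SE 0.14 for both). Fance (ENSMUSG00000007570.16, chr17:28313519-28326572), which contacts FANCD2, had 31.0, 26.5 and 19.0 CPM with vehicle and 16.2, 14.5 and 15.9 CPM with CYC065. The fall was 0.93 in 2N and 0.87 in 4N but 0.25 in unsorted cells, where the vehicle level was lower.

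The ubiquitin ligase subunit Fancl fell by 0.55 in 2N cells and by 1.24 in unsorted cells and was not called in 4N cells, at -0.08 (95% interval -0.22 to 0.05). Ube2t (ENSMUSG00000026429.9, chr1:134962565-134974162), its ubiquitin-conjugating enzyme, had 5.89, 8.10 and 7.83 CPM in 2N, 4N and unsorted cells with vehicle and 4.47, 6.68 and 3.43 CPM with CYC065. Its fall was 0.40 in 2N, 0.28 in 4N and 1.19 in unsorted cells. Fancm, the translocase that brings the complex to DNA, fell by 1.14, 0.74 and 0.79, and Fancg by 0.42 in 2N and 0.49 in unsorted cells. Fancc, with the lowest level per kilobase of exon of the 33 genes (0.486 CPM per kb in 2N vehicle cells, against 11.9 for Atm, the highest), passed the test in unsorted cells only, at -0.35 (adjusted P 0.0395). In the sorted populations it was at -0.20 in each (95% intervals -0.48 to 0.08 and -0.46 to 0.06).

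The ID2 pair, which the core complex monoubiquitinates, had the lowest class median in 2N cells (-2.15). Fancd2 (ENSMUSG00000034023.16, chr6:113531682-113597017) had 37.7, 42.7 and 23.2 CPM in 2N, 4N and unsorted cells with vehicle and 7.28, 14.7 and 6.31 CPM with CYC065. The log2 fold change was -2.37 (SE 0.05, adjusted P 2.29e-22) in 2N, -1.54 (SE 0.05) in 4N and -1.88 (SE 0.06) in unsorted cells. Fanci (ENSMUSG00000039187.16, chr7:79391929-79450264) went from 21.1, 26.3 and 18.4 CPM to 5.55, 9.36 and 4.29 CPM in the same order, or to 26.3%, 35.6% and 23.3% of vehicle. All vehicle libraries were above all treated ones for both genes.

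Of the 4 checkpoint kinases Atm, Atr and Chek1 fell in each population, and Chek2 in unsorted cells only. Atm (ENSMUSG00000034218.16, chr9:53439149-53536740), the kinase activated by double-strand breaks, had 123, 105 and 86.7 CPM in 2N, 4N and unsorted cells with vehicle and 28.9, 33.2 and 22.6 CPM with CYC065. Its log2 fold change was -2.10 (SE 0.04, adjusted P 3.12e-25) in 2N, -1.65 (SE 0.03) in 4N and -1.94 (SE 0.04) in unsorted cells. Atr (ENSMUSG00000032409.15, chr9:95857597-95951781), which answers stalled forks, fell less, from 52.9, 54.9 and 39.6 CPM to 23.5, 29.4 and 16.9 CPM, by 1.17, 0.90 and 1.23 on the log2 scale. Its target kinase Chek1 (ENSMUSG00000032113.16, chr9:36708482-36727065) went from 20.2, 20.7 and 14.9 CPM to 10.3, 12.9 and 6.78 CPM, or by 0.97, 0.68 and 1.14.

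Chek2 (ENSMUSG00000029521.7, chr5:110839979-110874145), the kinase downstream of ATM, did not follow in sorted cells. Its levels were 12.0, 18.6 and 20.9 CPM in 2N, 4N and unsorted cells with vehicle and 14.2, 23.7 and 12.8 CPM with CYC065. Levels of treated and untreated cells overlapped: Chek2 rose in 2N (0.24, SE 0.07, adjusted P 0.0019) and in 4N cells (0.35, SE 0.06, adjusted P 3.81e-06) and fell in unsorted cells (-0.71, SE 0.06, adjusted P 1.81e-10). With an assumed coefficient of variation of 0.1 between cultures neither rise was called (edgeR likelihood ratio test, adjusted P 0.38 in 2N and 0.183 in 4N cells).

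Between ploidy classes, the second question of the design, fewer members differed with vehicle. Of the 33 genes 10 were higher and 5 lower in 4N than in 2N cells (19.9% of all genes in each direction), 0 beyond a log2 fold change of 1 by edgeR or DESeq2 (1.02% higher and 1.78% lower of all genes), and the median was 0.05. Chek2 led with 0.63 (SE 0.06, adjusted P 1.25e-08), followed by Ube2t (0.46) and Fanci (0.32). Atm (-0.24), Exo1 (-0.23) and Fance (-0.23) were the lowest. The 5 genes of the BRCA1 complex and mediators lay between -0.07 and 0.09. Of these, 0 passed the test in edgeR or DESeq2 or had an unadjusted edgeR P below 0.05. The smallest unadjusted edgeR P values were 0.05003 (Brca1) and 0.0549 (Brca2), both near that limit. At an assumed coefficient of variation of 0.1, edgeR called none of all 33 members (0 higher and 0 lower), and without replicate 1 the number higher was 6.

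With CYC065 the 4N library had more of nearly every gene. Here 27 members were higher and 2 lower in 4N than in 2N cells, against 22.2% and 22.0% of all genes, with a median of 0.52 over the 33 genes and 0.00 over all genes. Bard1 (1.07, SE 0.04, adjusted P 3.94e-16) and Fancd2 (1.01, SE 0.06, adjusted P 1.80e-12) were the 2 genes above 1 (1.38% of all genes), 0 were below -1 (1.94%), and Rad51b followed at 0.95 (SE 0.13). With an assumed coefficient of variation of 0.1 between cultures 13 were called higher and 0 lower, and without replicate 1, 1 gene was beyond 1. The 2 lower genes were Xrcc3 (-0.66, SE 0.16) and Fance (-0.16, SE 0.06). Fance was not called by DESeq2 (adjusted P 0.0831), nor Xrcc3 without replicate 1 (edgeR adjusted P 0.114). Class medians ran from 0.29 for the Fanconi core complex to 0.88 for the ID2 pair, and all 5 genes of the BRCA1 complex and mediators and all 4 checkpoint kinases were called higher.

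The G2/M markers were also higher in 4N cells with CYC065. They were higher with vehicle as well, where the median of the 33 genes was 0.05. All 15 were higher in 4N than in 2N cells in both treatments, with a median of 0.67 with vehicle and 1.24 with CYC065, and their summed level was 3054 and 4559 CPM in 2N and 4N cells with vehicle and 1064 and 2625 CPM with CYC065. The S phase markers had medians of -0.17 with vehicle and 0.16 with CYC065. The part of the cell cycle phases within each gate in these differences was not tested.

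Whether the 4N/2N ratio differed with treatment was tested as an interaction, which equals the CYC065 effect in 4N minus that in 2N cells. It was called for 24 of the 33 genes, 23 positive and 1 negative, where 20.8% and 17.8% of all genes were called. The median was 0.44 over the 33 genes and 0.01 over all genes. Bard1 had the largest difference at 1.11 (SE 0.06, adjusted P 1.78e-13), the only member above 1 (2.05% of all genes), with 0 below -1 (1.74%). Brip1 and Brca1 followed at 0.84 each (SE 0.06 and 0.05), then Fancd2 (0.83) and Rad51ap1 (0.80). Fancf was the negative one at -0.52 (SE 0.20, adjusted P 0.0424), a call that DESeq2 did not make (adjusted P 0.0817). The call was also lost in edgeR with separate fits of sorted and unsorted cells, with no filter, and without replicate 1. Chek2 had 4N/2N ratios of 0.63 with vehicle and 0.73 with CYC065 on the log2 scale, and its difference of 0.10 was not called (95% interval -0.07 to 0.27). With an assumed coefficient of variation of 0.1 between cultures, only Bard1 remained called.

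**Figure D3:**
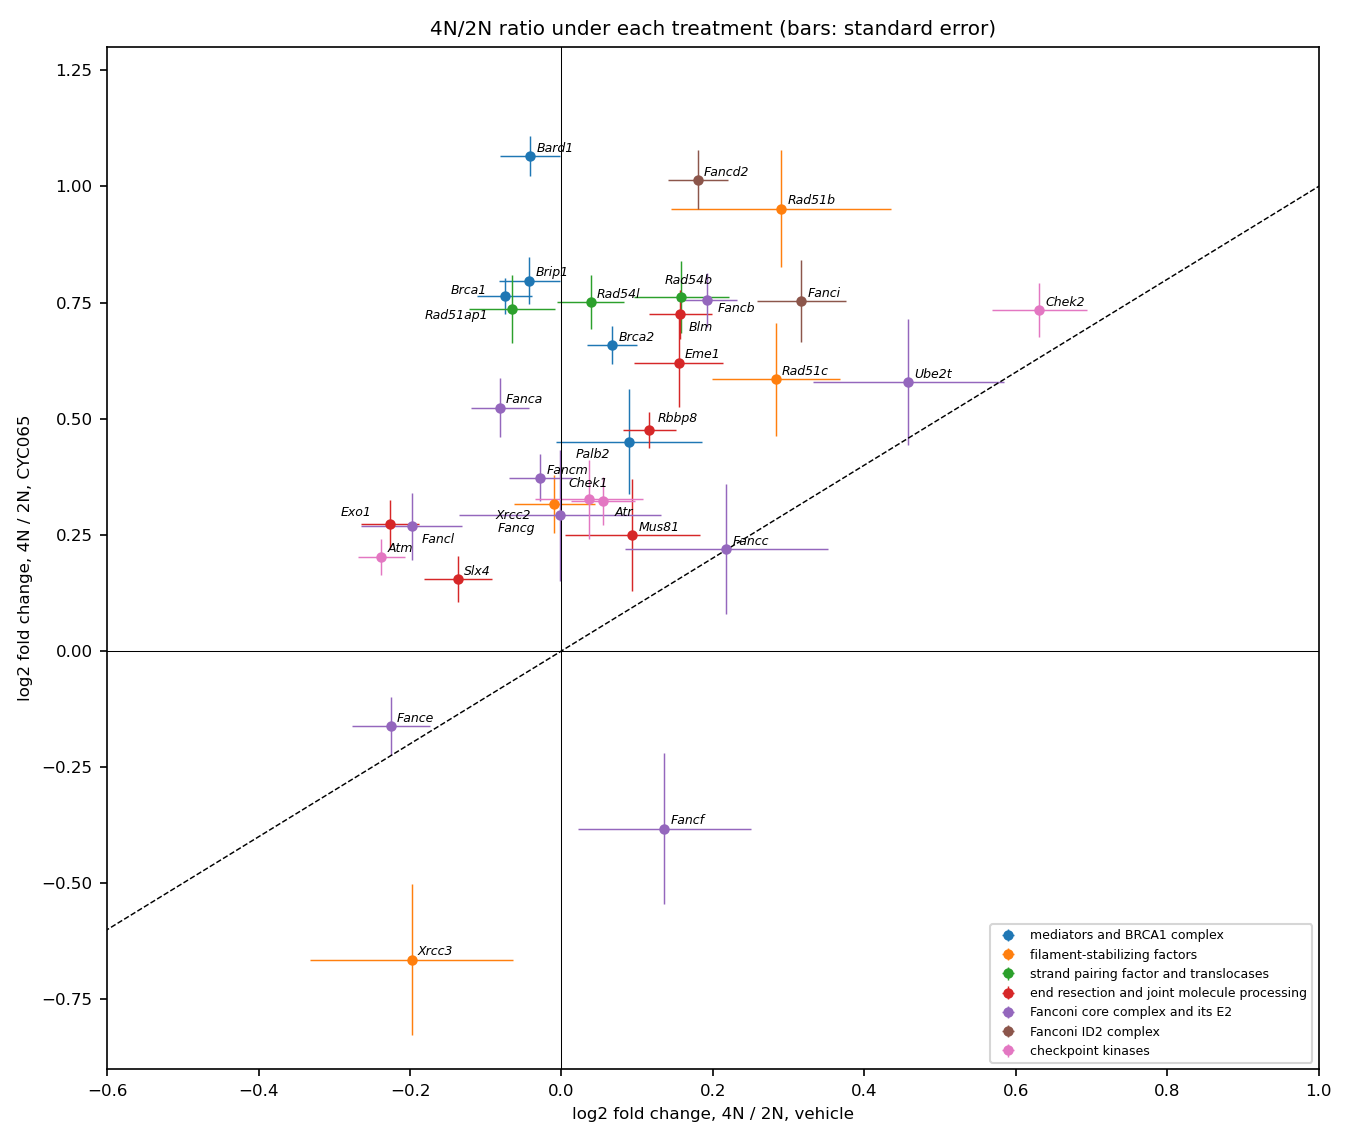
Log2 fold change between 4N and 2N cells with vehicle (horizontal axis) and with CYC065 (vertical axis) for the 33 genes, colored by role. Bars are standard errors from counting and the dashed line marks equal ratios. Most genes lie above the line, with Bard1 farthest at -0.04 and 1.07, Chek2 near it at 0.63 and 0.73, and Xrcc3 and Fancf below it.

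Length of the gene was compared with these differences as a description across genes, which are not independent and share the libraries. Spearman's rho between genomic span and the difference of ratios was 0.45 over the 33 genes and 0.01 over all 14761 genes. For the 4N/2N ratio with CYC065 the values were 0.39 and 0.14, and for the CYC065 effect in 2N cells 0.02 and 0.09. With exon length in place of span, the difference of ratios gave 0.345 and 0.091. The 4N/2N ratio with CYC065 then gave 0.137 and 0.127, and the CYC065 effect in 2N cells -0.263 and 0.0403.

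Unsorted levels were not always between the sorted ones. With vehicle, the unsorted library was below both sorted libraries for 25 of the 33 genes, above both for 5 and between them for 3, where 41.4% of all genes were below and 43.2% above. With CYC065, 30 members were below both sorted libraries and 3 between (42.8% of all genes below). Unsorted cells include cells outside both gates, whose levels were not measured. Sorted cells also went through staining and the sorter, and whether unsorted cells were stained was not given in the sources used here. Cell composition and handling therefore differed together between sorted and unsorted libraries. The part of either in the unsorted levels was not tested. The lower unsorted levels were shared by the S phase markers, whose sums in unsorted cells were the lowest of each treatment. They were not particular to S phase. The same held for the sums of the p53 targets and of every further repair list described below. The G2/M markers differed, with unsorted sums of 3466 CPM with vehicle and 1216 CPM with CYC065, between the sorted ones. Sums of the fibroblast markers were highest in unsorted cells in each treatment.

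Other DNA repair genes were counted in 2N cells, where 38.7% of all tested genes were lower and 41.7% higher. Of 23 further genes in or regulating homologous recombination, 18 fell and 3 rose in 2N cells (median -0.83). They ran from Rmi2 of the BLM dissolvasome at -2.66 to Rad52 at 0.27. Of 16 further Fanconi pathway genes 10 fell and 3 rose (median -0.42), from Faap24 at -2.37 to the translesion polymerase gene Rev3l at 0.95. Of 17 further checkpoint genes 15 fell and 1 rose (median -0.92), from the clamp subunit Rad9a at -1.86 to Trp53bp1 at 0.22.

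The remaining repair lists are given against the same shares of all genes. All 7 mismatch repair genes fell (median -0.69), least Msh3 at -0.38. Of 10 base excision repair genes 8 fell and 1 rose (median -0.69), from Mutyh at -2.23 to Neil1 at 0.81. Of 8 end joining genes 3 fell and 2 rose (median -0.07), a share lower near that of all genes, with the partners of the Ku dimer apart, Xrcc6 at -1.11 and Xrcc5 at 0.62. Of 11 nucleotide excision repair genes 4 fell and 4 rose (median 0.05), likewise near the shares of all genes, with Ddb2 highest at 1.32. A list of 12 p53 targets held 7 genes that rose and 5 that fell, with Trp53inp1 highest at 5.34 and Aen lowest at -1.80. The corresponding medians in 4N cells were -0.67, -0.39 and -0.76 for the further recombination, Fanconi and checkpoint genes, -0.27 for mismatch, -0.49 for base excision, -0.32 for end joining and 0.07 for nucleotide excision repair. Medians of lists were compared side by side, and no difference between lists was tested.

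**Figure D4:**
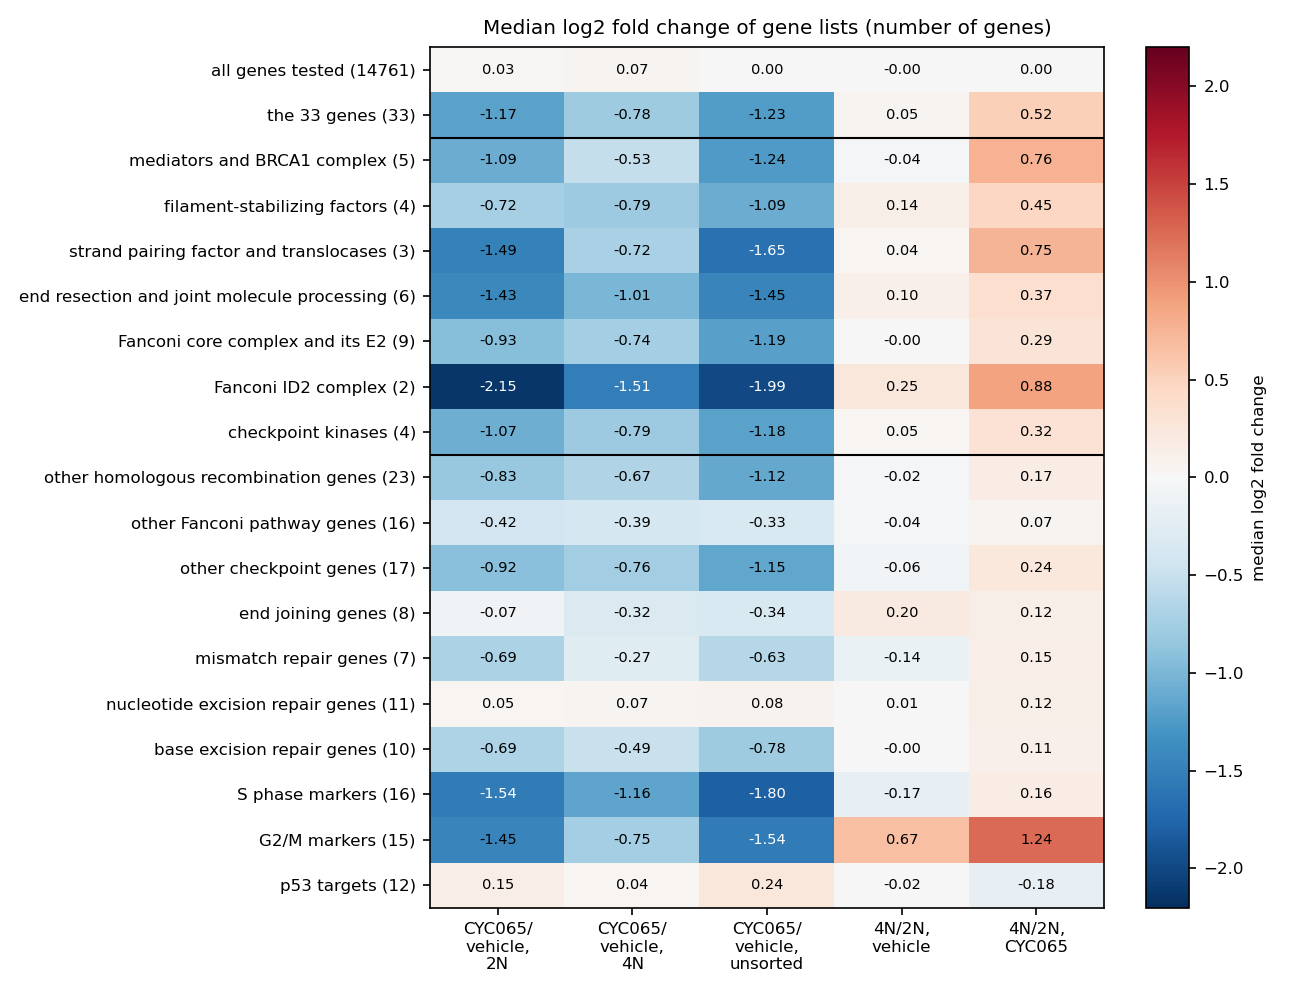
Median log2 fold change (color and printed value) of all tested genes, the 33 genes, their 7 role classes and 10 further gene lists in 5 comparisons, with the number of genes of each list in brackets. The ID2 pair and the S phase markers have the lowest medians in 2N cells (-2.15 and -1.54), while nucleotide excision repair genes and p53 targets are near 0 or above in the 3 treatment comparisons.

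Some counts are less certain than others. Exons of 17 of the 33 genes share bases with a gene on the opposite strand, over 10% of the exon bases in 7 of them (Rad54l, Eme1, Fanca, Fancc, Fancf, Fancl and Fanci). The libraries were stranded, but the strand setting of the counting was not given in the sources used here, and without it such reads could not be told apart.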

How the data were processed

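Total RNA was depleted of ribosomal RNA and made into stranded paired-end libraries. Per the submitters' processing notes, reads were demultiplexed with bcl2fastq 2.17, trimmed with cutadapt 1.18 and aligned to mm10 with STAR 2.7.0f, and RSEM 1.3.1 estimated gene counts for GENCODE M21. The values the authors deposited are RSEM expected counts, not normalized or filtered. Per the deposited table, 9.66% of genes had a fractional value in at least 1 column, since RSEM divides ambiguous reads between genes, and 32 of the 33 genes described had whole counts in every column. The strand setting of RSEM was not given in the sources used here.

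Groups came from the sample labels, and all 18 columns were assigned. Expected counts were rounded, and edgeR 4.0.16 (R 4.3.3) fitted a quasi-likelihood model with TMM normalization and 6 condition means to the 14761 genes whose counts summed to 30 or more in any 1 condition. The common coefficient of variation among columns was 0.0288. P values were Benjamini-Hochberg adjusted over all tested genes. A gene was called at an adjusted P below 0.05, and beyond a log2 fold change of 1 where stated. Because the 3 columns of a condition were parts of 1 library, adjusted P values compare libraries. Standard errors were taken from the coefficient and its F statistic, with intervals at 95%. The fit was tested on simulated data with known changes.

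The 33 genes, the role classes and the other lists were chosen with earlier results of these data known. Levels in all 6 libraries were given for Brca1, Brca2, Fancd2, Atm, Atr, Chek1 and Chek2 and for the 3 called genes with the largest change in each direction of each comparison whose higher library held 100 or more counts. For other lists only the highest and lowest gene was named, and 2 of these are not reported here. Gene coordinates were those of GENCODE M21 on mm10. Promoter windows came from RefSeq on GRCm38.p6, and 5 genes (Fancd2, Exo1, Rbbp8, Xrcc2 and Rad54b) had no matched window. Alternatives were a replicate block, DESeq2 1.42.0, an assumed coefficient of variation of 0.1 between cultures on summed libraries, library size scaling, DESeq2 size factors, separate fits of sorted and unsorted cells, no filter, a summed count of at least 100, and leaving out each replicate number. Python 3.11.15 with pandas 2.3.3 and Matplotlib 3.10.9 was used for summaries and plots.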

Additional observations from a re-analysis of the deposited data

Results flagged for a closer look

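The effect of CYC065 differed between 4N and 2N cells for 24 of the 33 genes by the edgeR interaction test, which rests on 1 library per condition and on counting error. Each value is the log2 fold change in 4N minus that in 2N cells. Among the BRCA1 complex and mediators the differences were 1.11 for Bard1, 0.84 for Brca1, 0.84 for Brip1 and 0.59 for Brca2. Recombination genes further gave 0.66 for Rad51b, 0.33 for Xrcc2, 0.80 for Rad51ap1, 0.71 for Rad54l and 0.60 for Rad54b. Resection and joint molecule genes gave 0.36 for Rbbp8, 0.50 for Exo1, 0.57 for Blm, 0.47 for Eme1 and 0.29 for Slx4. Fanconi genes gave 0.61 for Fanca, 0.56 for Fancb, -0.52 for Fancf, 0.47 for Fancl, 0.40 for Fancm, 0.83 for Fancd2 and 0.44 for Fanci. The negative call of Fancf was lost with DESeq2, an assumed coefficient of variation of 0.1, separate fits of sorted and unsorted cells, no filter, and without replicate 1. The checkpoint kinases gave 0.44 for Atm, 0.27 for Atr and 0.29 for Chek1. Of all tested genes 20.8% had a positive and 17.8% a negative difference called. The median difference was 0.52 for the G2/M markers and 0.37 for the S phase markers, in the direction of the group. It was 0.36 for mismatch repair, 0.32 for further recombination and 0.27 for further checkpoint genes. Base excision repair (0.18), further Fanconi (0.11) and nucleotide excision repair genes (0.06) had smaller medians. Those of end joining genes (-0.06) and p53 targets (-0.12) were below 0. The part of the cell cycle in the differences of the group was not tested.

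Chek2 moved in opposite directions with CYC065 in sorted and unsorted cells, with log2 fold changes of 0.24 in 2N and 0.35 in 4N cells and of -0.71 in unsorted cells. The difference between sorted and unsorted cells was not tested. The vehicle unsorted library, at 20.9 CPM, was above the 2N and 4N vehicle libraries at 12.0 and 18.6 CPM.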

How the results depend on the processing

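Each condition rests on 1 library, so the tests cannot show how far cultures differ, and levels are relative to the rest of each library. With an assumed coefficient of variation of 0.1 between cultures on summed libraries, 28, 25 and 29 genes remained lower with CYC065 in 2N, 4N and unsorted cells. The ploidy comparisons lost more: 0 of the 33 genes were called between 4N and 2N cells with vehicle in place of 15, 13 with CYC065 in place of 29, and 1 (Bard1) for the difference between ratios in place of 24. This alternative differs by construction in adding an assumed spread, at which small changes such as those of Chek2 can hardly be called, so a call lost there does not show that the change is absent. Leaving out each replicate number in turn gave between 10 and 12 called genes for 4N versus 2N cells with vehicle, where Blm, Eme1, Fancl, Rad51c, Rad54b, Rbbp8, Slx4 and Ube2t each lost the call at least once and Fanca and Brca2 gained it. The cause was not tested.

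The replicate numbers do not pair the samples. Deviations of columns with the same number correlated between -0.36 and 0.31, and those with other numbers between -0.27 and 0.43. With the replicate block 30 genes fell and 1 rose in 2N cells, 27 and 2 in 4N cells, and 32 and 0 in unsorted cells, as without it. The ploidy counts with the block were 9 higher and 5 lower with vehicle, 27 and 3 with CYC065, and 23 and 1 for the difference.

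Beyond a log2 fold change of 1, leaving out a replicate number gave between 1 and 2 genes for 4N versus 2N cells with CYC065. Counting each gene count under each of the 11 alternatives, 128 stayed within 1.5 times the reported count and 4 did not. Of the values of single genes, 2046 kept their side of the threshold, 119 lost the call and 13 gained one. No called value changed sign. Another 25 values that were not called changed sign, all at most 0.06 from 0. Scaling by library size alone moved the median of all genes by -0.12 in unsorted cells. Genes whose call with CYC065 was lost in at least 1 alternative were Fancg, Ube2t, Chek2 and Xrcc3 in 2N cells, Brca1, Ube2t and Chek2 in 4N cells, and Fancc, Fance and Fancg in unsorted cells. Between treated 4N and 2N cells the lower call of Fance was lost with DESeq2, the assumed spread, library size scaling, no filter, and without replicate 2 or 3, and that of Xrcc3 with the assumed spread and without replicate 1. Rad51b was called higher in 2N cells with library size scaling and without replicate 3.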
